A study of Arabidopsis thaliana with 23 samples.

Results

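FWA (AT4G25530), SDC (AT2G17690) and the retroelement AtSN1 are loci at which RNA-directed DNA methylation (RdDM) has long been studied, and the small RNAs at these loci are described here across 8 groups of small RNA-seq libraries. Members were all 100-bp windows within chr4:13037001-13043000 (FWA), chr2:7679001-7685000 (SDC) and chr3:15805501-15805900 (the coordinates given for AtSN1), on TAIR10. This gave 60, 60 and 4 windows, 124 in all. The rule used positions only and no measured value, but the loci were chosen with earlier results of these data known. A 24-nt read was found in 21, 28 and 4 of these windows, or 53 of the 553580 windows of the genome that held one in any library, and in no comparison did more than 25 of the 124 hold enough reads for a test (10 reads over the libraries compared).

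In RdDM, RNA polymerase IV (Pol IV, largest subunit NRPD1) makes short transcripts that RDR2 turns into double strands and DCL3 cuts into 24-nt siRNAs, which then guide DNA methylation to matching sequence. SHH1 binds histone H3 with methylated lysine 9 and recruits Pol IV to many of its sites, and ZMP is a Pol IV-interacting protein with zinc finger, SWIB and Plus-3 domains. FWA encodes a homeodomain transcription factor that delays flowering when its methylated tandem repeats lose methylation, and SDC encodes an F-box protein whose expression gives dwarf plants with curled leaves when its promoter repeats are unmethylated. AtSN1 is a short interspersed element often used to read out RdDM.

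The libraries came from Col-0 inflorescences in 2 sets, called batch A and batch B here. Batch A held WT (n = 3), zmp-2 (n = 3), nrpd1-3 (n = 2) and zmp-2 ZMP-YFP (n = 3), which is zmp-2 carrying a ZMP-YFP transgene under the ZMP promoter. Batch B held WT (n = 3), zmp-2 (n = 3), zmp-2 nrpd1-3 (n = 3) and zmp-2 shh1-1 (n = 3). The design calls them biological replicates. zmp-2 is a T-DNA insertion allele, and shh1-1 was present only together with zmp-2, so an effect of shh1-1 in plants with ZMP was not measured. Levels are reads per 1000000 reads of 45S ribosomal RNA (RPMR), the study's scaling.

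The libraries held 0.532 to 8.35 M reads of 21 to 24 nt and 0.247 to 7.72 M reads of 45S rRNA, where M stands for 1000000. In the 5 libraries with nrpd1-3, 12.5 to 13.8% of the 21- to 24-nt reads were 24 nt long, against 52.5 to 62.9% in the other 18, so the 24-nt class followed the nrpd1-3 label. The mutated transcripts themselves were not measured. The number of 45S reads per 21- to 24-nt read was 0.0576 in WT and 0.0705 in zmp-2 of batch A, 0.142 in WT and 0.181 in zmp-2 of batch B, 0.393 in zmp-2 shh1-1, and 12.2 in zmp-2 nrpd1-3. Levels in RPMR therefore differ from levels per 1000000 reads of 21 to 24 nt (the total-read scaling), and both are given where they part. In whole tissue, fewer cells of a type and less RNA per cell cannot be told apart.

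The repeats are shown first because nearly all reads lay on them. At FWA the 5 windows of chr4:13038201-13038700 held every 24-mer that occurs again inside the locus. They began 159 bp before the annotated transcription start and took in exons 1 and 2, both noncoding, with the intron between them and the first bases of the next. Upstream of the start, 2 copies of 38 bp lay 45 bp apart, and longer copies, of 87 and 86 bp, lay 211 bp apart downstream of it. At SDC the repeat windows were chr2:7681901-7682100, 261 to 62 bp before the start, with copies 64 bp apart. The sequences below are from the RefSeq genome (TAIR10.1), plus strand, which is the coding strand of both genes. Capitals mark bases covered by a 24-mer that occurs again in the same locus.
FWA upstream, chr4:13038201-13038359: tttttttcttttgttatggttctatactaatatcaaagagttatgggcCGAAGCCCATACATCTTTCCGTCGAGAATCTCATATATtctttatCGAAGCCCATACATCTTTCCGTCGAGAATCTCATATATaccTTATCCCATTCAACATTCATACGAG
SDC upstream, chr2:7681901-7682100: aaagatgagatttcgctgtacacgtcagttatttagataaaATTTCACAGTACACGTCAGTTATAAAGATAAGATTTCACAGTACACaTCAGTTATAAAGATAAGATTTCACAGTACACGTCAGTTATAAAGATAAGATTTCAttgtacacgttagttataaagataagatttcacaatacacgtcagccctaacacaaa

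The label of the third member could not be checked against its name. The RefSeq annotation places all 4 windows of chr3:15805501-15805900 within the transcribed pseudogene AT3G44030 (chr3:15803993-15806948, plus strand). They are called the AT3G44030 windows from here on. Between 27 and 75% of the 24-mers in these 4 windows occur a single time in the genome, so many reads could have come from other copies. After the values had been seen, an intergenic region 11000 bp away, chr3:15794501-15794900, was added beside them because a hand search with assay primers for AtSN1, made outside the computed results, pointed there. Its 24-mers were 93 to 100% unique. The windows with the most reads in both regions are shown because they behaved differently in zmp-2 shh1-1.
AT3G44030 window, chr3:15805501-15805600: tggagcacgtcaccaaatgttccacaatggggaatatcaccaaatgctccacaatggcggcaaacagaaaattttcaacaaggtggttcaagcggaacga
Added intergenic region, chr3:15794601-15794800: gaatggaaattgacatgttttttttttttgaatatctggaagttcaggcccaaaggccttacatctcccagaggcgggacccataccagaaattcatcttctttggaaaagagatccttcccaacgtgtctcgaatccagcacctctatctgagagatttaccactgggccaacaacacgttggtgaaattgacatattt

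In WT, 24-nt siRNAs covered the FWA repeats and were almost absent from the rest of the locus. In batch A the FWA locus held 144, 111 and 104 reads of 24 nt in the 3 WT libraries, or 532, 449 and 410.4 RPMR. In batch B it held 124, 106 and 70 reads, or 171, 266 and 159.7 RPMR. The 5 repeat windows took 97.9% ± 1.46 (SD, n = 3) of these reads in batch A and 97.5% ± 1.68 (SD, n = 3) in batch B. The coding exons of FWA held no 24-nt read in the 6 WT libraries. The window with the highest level over the 8 groups was chr4:13038201-13038300, just upstream of the start, with 199.7, 146 and 146 RPMR in WT of batch A.

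SDC carried the most 24-nt siRNAs of the 3 loci. The WT libraries of batch A held 711, 583 and 598 reads (2629, 2360 and 2360 RPMR), and those of batch B held 449, 399 and 295 reads (619, 1003 and 673 RPMR). The 2 repeat windows took 85.2% ± 0.555 (SD, n = 3) in batch A and 82.0% ± 2.61 (SD, n = 3) in batch B. The peak window was chr2:7682001-7682100, with 1276, 1089 and 963 RPMR in WT of batch A. Lower levels reached from about 7680801 upstream to 7682400 in the first, noncoding exon, while the coding sequence held no 24-nt read in the 6 WT libraries. The AT3G44030 windows were the lowest, with 24, 23 and 20 reads in WT of batch A (88.7, 93.1 and 78.9 RPMR) and 13, 17 and 12 reads in batch B (17.9, 42.7 and 27.4 RPMR). Over all libraries, 77.2% of their 24-nt reads lay in the first window. Windows at each locus share sequence and library, so they are not replicates of each other.

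**Figure D1:**
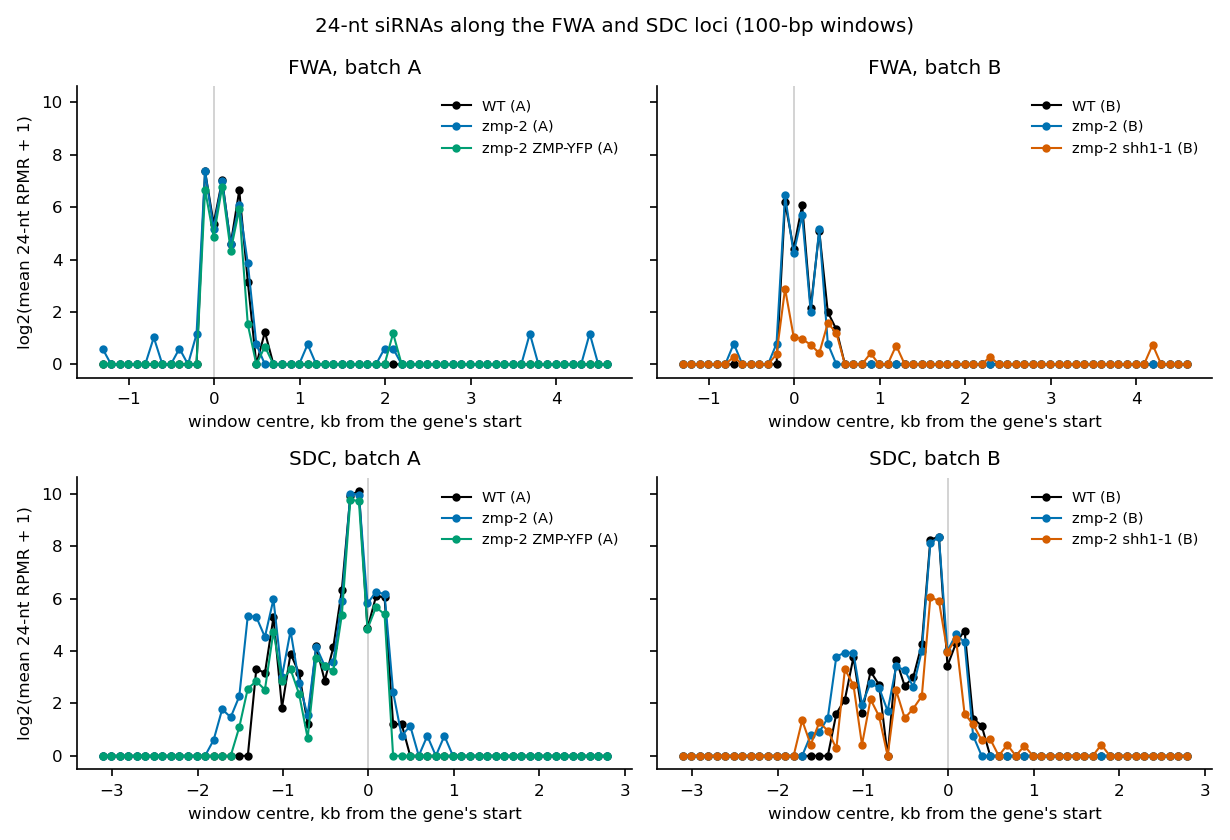
Mean 24-nt level per 100-bp window, as log2(RPMR + 1), against the distance of the window's centre from the annotated gene start in kb, for FWA (top) and SDC (bottom) in batch A (left) and batch B (right). Lines join group means of 3 libraries. FWA reads sit on the repeats around the start, SDC reads peak just upstream of it, zmp-2 lies above WT at about -1.4 to -1.2 kb of SDC, and zmp-2 shh1-1 lies low over the repeats of both genes.

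The sizes of the siRNAs are given per locus, without a test between loci. At FWA, 24-nt reads made up 56.4% ± 4.92 (SD, n = 3) of the 21- to 24-nt reads in WT of batch A and 52.8% ± 4.82 in batch B, and the others were mostly 22 and 23 nt. For every 100 reads of 24 nt, WT of batch A held 31.5 reads of 22 nt at FWA, 4.70 at SDC and 38.8 at the AT3G44030 windows, against 19.1 over the whole libraries. The order was alike in WT of batch B, with 32.7, 3.41 and 38.1. At SDC the 24-nt share was 79.0% ± 3.26 (SD, n = 3) in batch A and 79.7% ± 0.593 in batch B. At the AT3G44030 windows it was 56.1% ± 2.75 and 54.7% ± 1.71 in WT.

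**Figure D2:**
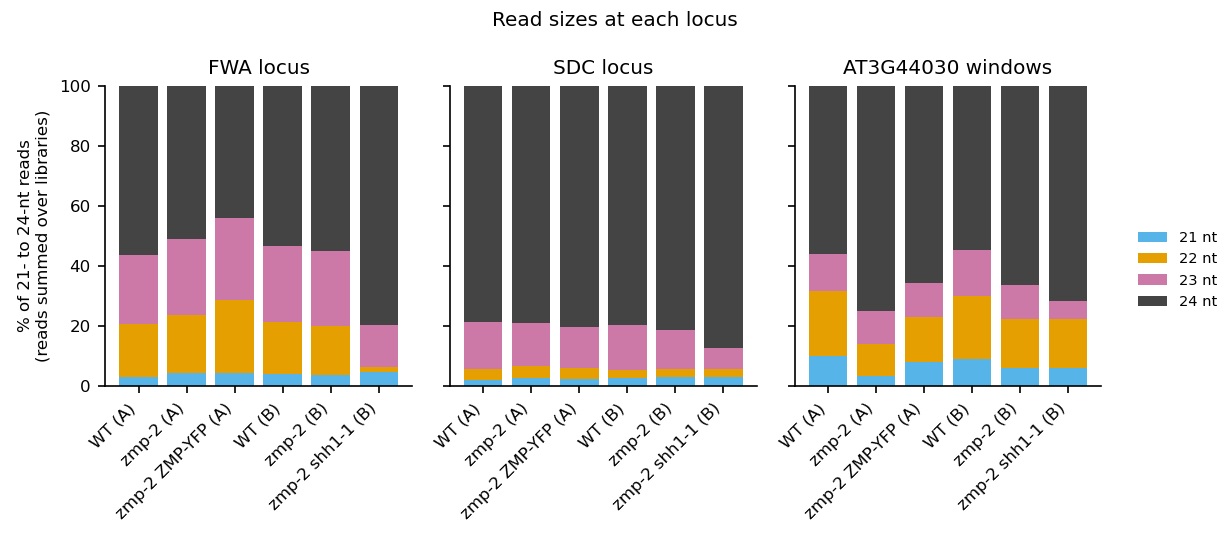
Share of reads of 21, 22, 23 and 24 nt among the 21- to 24-nt reads of each locus, as stacked bars in percent, with reads summed over the libraries of a group. Groups with nrpd1-3 are left out because they held at most 43 reads of these sizes at a locus. The 22-nt part at FWA is 1 read of 64 in zmp-2 shh1-1.

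In plants without NRPD1, 24-nt siRNAs were lost at every locus. The nrpd1-3 libraries held 1 and 1 reads at FWA, 15 and 7 at SDC, and 1 and 0 at the AT3G44030 windows. All member windows tested were lower than in WT, 5 of 5 at FWA, 10 of 10 at SDC and 2 of 2 at AT3G44030, where 98.7% of all windows tested in the genome were lower (edgeR quasi-likelihood test, FDR ≤ 0.05 and 2-fold). The smallest FDR was that of the SDC window chr2:7681901-7682000 (log2 fold change -7.52, approximate SE 0.40, FDR 1.4e-12). In zmp-2 nrpd1-3, FWA and the AT3G44030 windows held no 24-nt read in any of the 3 libraries, and SDC held 1, 0 and 3. All 16 member windows tested were lower than in zmp-2, against 98.8% of windows in the genome. In both comparisons the member windows reached the 10-read minimum almost only through WT or zmp-2. Under the 45S scaling a lower call was therefore close to given, and these counts add little to the reads. Against the level that 3 reads over the group would give, FWA was at least 1320-fold lower in RPMR and at least 18.8-fold lower under the total-read scaling. For the AT3G44030 windows the corresponding bounds were 330.1-fold and 4.71-fold. The bounds differ because these libraries held so many 45S reads. Under size factors estimated from the reads (DESeq2), none of the 17 windows passed in nrpd1-3, and with TMM factors 1 passed.

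**Figure D3:**
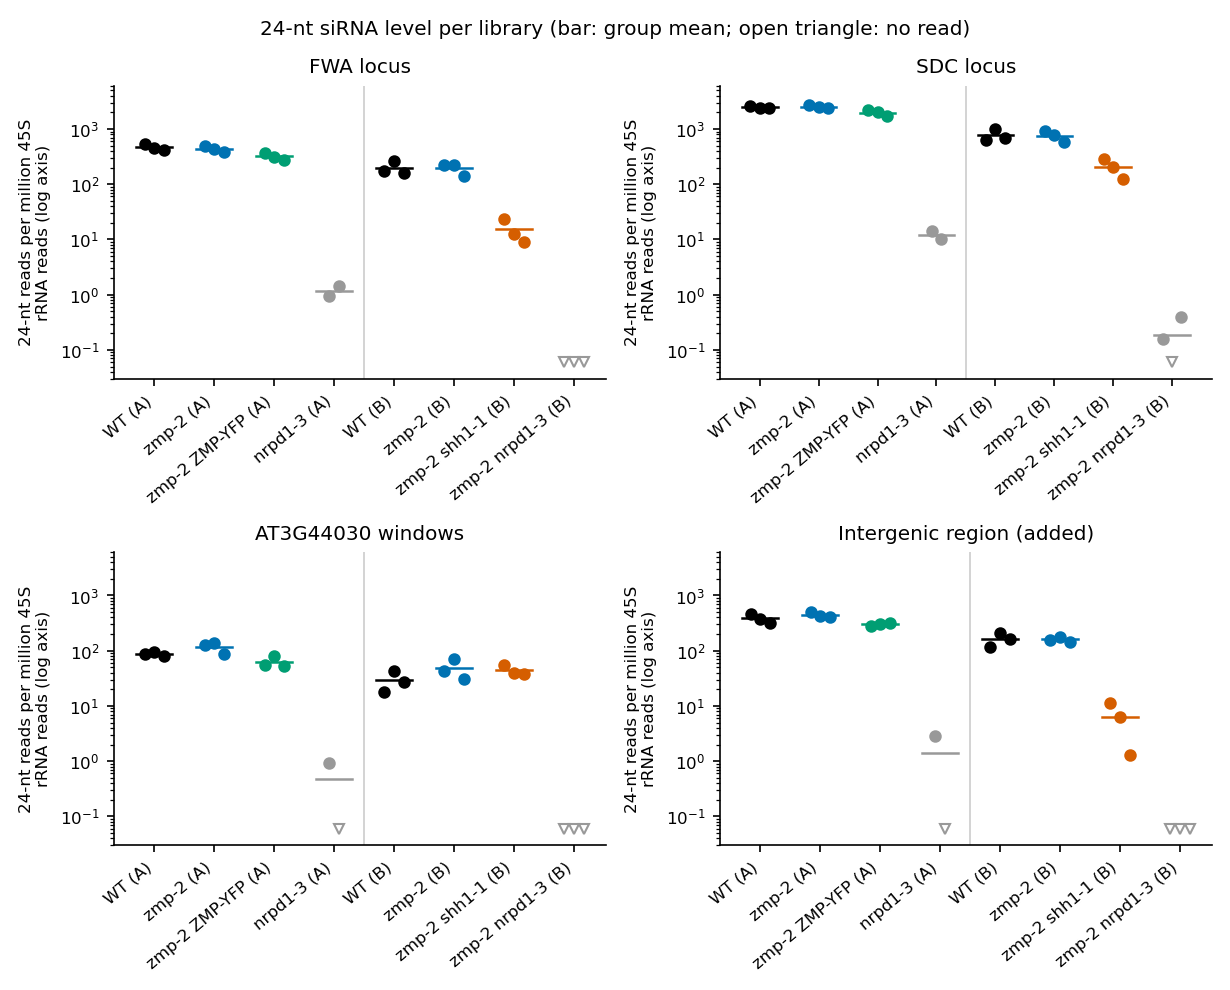
24-nt reads of each locus per 1000000 reads of 45S rRNA (RPMR), on a log axis, with 1 point per library, a bar at the group mean and an open triangle for a library without a read. Batch A is left of the grey line and batch B right of it. WT, zmp-2 and zmp-2 ZMP-YFP lie close to each other in each batch, and both groups with nrpd1-3 lie far below. At FWA and the added region zmp-2 shh1-1 lies well below zmp-2. It lies below zmp-2 by less at SDC, and level with it at the AT3G44030 windows.

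No FWA window differed between zmp-2 and WT past the test in either batch. In batch A, zmp-2 held 238, 116 and 245 reads (496, 437 and 381 RPMR), a range that overlapped WT. In batch B it held 102, 103 and 55 reads (222, 219 and 143 RPMR), again overlapping WT. The mean log2 difference of the locus was -0.09 in batch A (SD 0.19 in both groups, exact permutation p = 0.6) and -0.02 in batch B (SDs 0.35 and 0.40, exact permutation p = 1). Of the FWA windows, 0 of 6 were called in batch A and 0 of 5 in batch B by edgeR, none had an unadjusted p under 0.05, and DESeq2 called none. In the genome 6.05% of tested windows were lower and 2.48% higher in zmp-2 in batch A, and 6.12% and 1.82% in batch B. At the most covered window, chr4:13038201-13038300, the log2 fold change was 0.00 (approximate SE 0.27) in batch A and 0.28 (SE 0.34) in batch B, so a change of 2-fold lay outside 2 SE in both. Under the total-read scaling every zmp-2 library lay above every WT library at FWA, by 0.20 on the log2 scale in batch A and 0.33 in batch B. That scaling also raised the median of all tested windows, to 0.37 from 0.08 (batch A) and to 0.21 from -0.10 (batch B).

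At SDC, the repeats of zmp-2 did not differ from WT beyond the spread, while a window more than 1 kb upstream was higher in batch A. The locus held 1289, 672 and 1548 reads in zmp-2 of batch A (2687, 2534 and 2410 RPMR) and 421, 373 and 221 in batch B (916, 793 and 575 RPMR). The mean log2 difference to WT was 0.05 in batch A (exact permutation p = 0.5) and 0.00 in batch B (exact permutation p = 1), with overlap in both. Under the total-read scaling it was 0.34 and 0.35, and every zmp-2 library lay above every WT library. With 3 libraries against 3, the smallest p this test allows is 0.1. The repeat windows gave log2 fold changes between -0.15 and 0.07 in both batches, with SEs of 0.18 to 0.30.

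The upstream window chr2:7680701-7680800 lies 1362 bp before the SDC start, between SDC and the neighbouring gene AT2G17680. It held no 24-nt read in any of the 6 WT libraries of both batches. The zmp-2 libraries of batch A held 14, 16 and 19 reads there (29.2, 60.3 and 29.6 RPMR), and zmp-2 ZMP-YFP held 1, 0 and 3. This was the 1 window of 16 at SDC called in batch A (edgeR FDR 0.00068), and against 3 reads over the WT group it was at least 9.08-fold higher. The window reached the test through its zmp-2 reads alone. It stayed called under all scalings, with DESeq2 and without any 1 library. In batch B the zmp-2 libraries held only 0, 0 and 2 reads there, too few for a test, so the rise of batch A was not seen again. Depth was lower in batch B, with 1.83, 1.72 and 1.04 M reads of 24 nt in zmp-2 against 4.65, 2.32 and 5.07 M. Whether depth accounts for the difference between the batches was not tested. The next window, chr2:7680801-7680900, held 2, 1 and 4 reads in WT and 20, 14 and 13 in zmp-2 of batch A. In batch B it held 1, 1 and 1 reads in WT and 8, 5 and 4 in zmp-2. The groups did not overlap in either batch, and the log2 fold changes of 1.96 (SE 0.61) and 2.57 (SE 0.85) did not pass by edgeR (FDR 0.052 and 0.064), although with the total-read scaling (FDR 0.019 and 0.021) and with TMM (FDR 0.035 and 0.036) both did. In batch A it also passed without the count filter (FDR 0.04), with the replicate block (FDR 0.043), without WT replicate 3 (FDR 0.047) and without zmp-2 replicate 3 (FDR 0.025). In batch B no SDC window of 14 was called, 2 had an unadjusted p under 0.05, and DESeq2 called none. A read-placement limit applies here, since 30% of the 24-mers in chr2:7680701-7680800 and 83% in chr2:7680801-7680900 occur a single time in the genome.

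The share of SDC reads on the repeats was 79.7% ± 1.45 (SD, n = 3) in zmp-2 of batch A against 85.2% in WT, with no overlap between libraries (exact permutation p = 0.1). In batch B it was 79.3% ± 1.05 against 82.0% ± 2.61, with overlap (exact permutation p = 0.2). The difference of the zmp-2 effect between batches was tested for 25 member windows, and none had an unadjusted p under 0.05, while 79 of 176929 windows passed in the genome. For chr2:7680701-7680800 that test says nothing, since WT held no read in either batch, and by its reads the rise was seen in batch A alone.

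**Figure D4:**
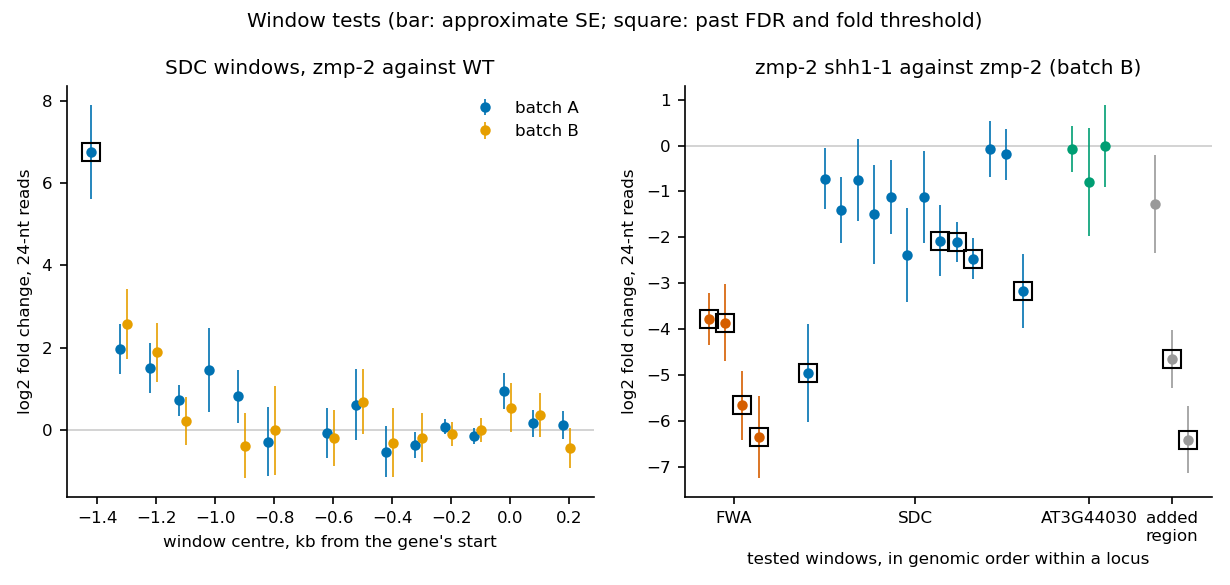
Left, log2 fold change of 24-nt reads in zmp-2 against WT at each tested SDC window, against the distance of its centre from the gene start in kb, in batch A and batch B. Right, log2 fold change in zmp-2 shh1-1 against zmp-2 for the tested windows of each locus in genomic order. Error bars are approximate SEs and squares mark windows past FDR 0.05 and 2-fold. The farthest upstream SDC window stands at 6.77 in batch A, a fitted value that depends on the prior count because WT held no read there, the 4 FWA windows lie between -3.78 and -6.35, and the 3 AT3G44030 windows lie between -0.80 and -0.01.

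The ZMP-YFP transgene was set against both WT and zmp-2. The stretch upstream of SDC was lower in zmp-2 ZMP-YFP than in zmp-2, at 4 of 16 SDC windows running from 7680701 to 7681100, with log2 fold changes of -3.22, -2.48, -2.25 and -1.24 (SEs 0.73, 0.65, 0.64 and 0.38). In the genome 4.34% of windows were lower and 4.01% higher in this comparison. The zmp-2 libraries were the same as in the comparison with WT, so the 2 comparisons are not independent at these SDC windows. Leaving out zmp-2 ZMP-YFP replicate 2 took all 4 calls away, leaving out another library kept 1 to 3, and DESeq2 called 1. No FWA window of 6 and no AT3G44030 window of 3 was called by edgeR or DESeq2, although 2 and 1 of them had an unadjusted p under 0.05. With the replicate block, edgeR called chr3:15805501-15805600 lower (-1.04, FDR 0.041). Against WT, zmp-2 ZMP-YFP had no called member window of 22 (3 with an unadjusted p under 0.05, 0 by DESeq2), where 0.451% of all windows were lower and 0.133% higher.

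The whole FWA locus held 109, 173 and 73 reads in zmp-2 ZMP-YFP, or 369.8, 312 and 278 RPMR, below every WT and every zmp-2 library of the batch (log2 difference to WT -0.54, exact permutation p = 0.1). The median of all tested windows in this comparison was -0.36. Under the total-read scaling the difference to WT was -0.20, with overlap. SDC held 649, 1123 and 444 reads (2202, 2025 and 1689 RPMR), also below every WT library, by -0.32 on the log2 scale, which became 0.01 under the total-read scaling. The 24-nt share at FWA was 44.6% ± 4.90 (SD, n = 3), below all 3 WT libraries (exact permutation p = 0.1), and it overlapped that of zmp-2, which was 50.7% ± 2.58. Against zmp-2, the zmp-2 ZMP-YFP libraries were lower without overlap at each locus under both scalings. The log2 difference was -0.45 at FWA, -0.37 at SDC and -0.84 at the AT3G44030 windows (each exact permutation p = 0.1), and -0.41, -0.33 and -0.80 under the total-read scaling. The median of all tested windows in this comparison was -0.44.

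The loci parted in zmp-2 shh1-1. FWA lost most of its 24-nt siRNAs, with 23, 14 and 14 reads left (23.5, 12.8 and 9.14 RPMR), against 143 to 222 RPMR in zmp-2. All 4 tested FWA windows were lower, where 28.9% of windows were lower in the genome. Past the first in genomic order, these windows reached the read minimum of the test mostly through zmp-2. A lower call was close to given there, and the count of calls adds little to the reads. The log2 fold changes of the 4 windows in genomic order were -3.78 (SE 0.56), -3.86 (SE 0.84), -5.66 (SE 0.75) and -6.35 (SE 0.89). The median over all tested windows was -1.0. The smallest FDR among the members was 5.9e-09, at chr4:13038401-13038500, over the end of exon 1 and part of the first intron. All 4 calls held under the total-read scaling, TMM factors and without any 1 library, and DESeq2 called 3. Over the locus the log2 difference was -3.70, or -2.61 under the total-read scaling, with no overlap in either (exact permutation p = 0.1). In zmp-2, 257 of the 260 reads lay in the repeat windows, so a loss elsewhere could hardly have been seen. Over windows of which at least 90% of 24-mers are unique, which held 7.84% of the locus's 24-nt reads and include 1 repeat window, the difference was -0.12.

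What remained at FWA was placed differently. In zmp-2 shh1-1 the 5 repeat windows held 31 of 51 reads, or 59.8% ± 15.0 (SD, n = 3) per library, against 99.02% ± 1.70 in zmp-2 (exact permutation p = 0.1, no overlap). Of those 31, 21 lay in the most upstream repeat window, chr4:13038201-13038300. The windows chr4:13038701-13038900, just past the repeats, held 12 reads in zmp-2 shh1-1 (means of 1.98 and 1.30 RPMR), 1 in zmp-2 (0.725 and 0 RPMR) and 7 in WT of batch B (2.98 and 1.52 RPMR). In batch A, zmp-2 held 569 of 599 reads in the repeat windows, or 94.97% ± 0.766 per library against 97.9% ± 1.46 in WT, without overlap (exact permutation p = 0.1).

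The shorter siRNAs of FWA were lost as well. Reads of 22 nt numbered 31, 25 and 21 in zmp-2 and 0, 1 and 0 in zmp-2 shh1-1. Reads of 23 nt numbered 53, 40 and 24, then 2, 3 and 4. Both tested 22-nt windows were lower (genome 22.7%), as were 3 of 3 windows of 23 nt (genome 53.0%) and the single 21-nt window tested (genome 23.1%). All of these windows reached the read minimum of the test mostly through zmp-2. A lower call was therefore close to given, and these counts add little to the reads. The 24-nt share of what was left rose to 78.6% ± 8.53 from 54.9% ± 3.46 in zmp-2, without overlap, on 64 reads in all (exact permutation p = 0.1, the smallest possible).

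SDC was lower as well, by less than FWA. It held 278, 222 and 187 reads in zmp-2 shh1-1 (284, 202 and 122 RPMR), every library below the 575 to 916 RPMR of zmp-2. The log2 difference was -1.96, and -0.87 under the total-read scaling, with no overlap in either (exact permutation p = 0.1). Of 14 tested windows, 5 were lower and none higher, a share near the 28.9% of the genome. Under the total-read scaling 4 were lower, with TMM 4 and with DESeq2 3. In the genome 18984, 19213 and 13534 of 101166 windows were lower under these settings. Both repeat windows were among the 5, at -2.10 (SE 0.44) and -2.46 (SE 0.44), beside chr2:7680801-7680900 at -4.95 (SE 1.07), which fell from 17 reads to 1. The 2 windows over the start and the first exon, chr2:7682101-7682300, stood at -0.07 (SE 0.61) and -0.19 (SE 0.56), and their neighbour chr2:7682301-7682400 fell by 3.17 on the log2 scale (SE 0.81). The repeat windows took 60.5% ± 3.45 (SD, n = 3) of the locus's reads, against 79.3% ± 1.05 in zmp-2, with no overlap (exact permutation p = 0.1). All 3 tested windows of 23 nt were lower (genome 53.0%), as was 1 of 2 of 21 nt (genome 23.1%). Of 22 nt, 0 of 2 were lower by edgeR (genome 22.7%), of which 1 had an unadjusted p under 0.05.

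The AT3G44030 windows were not lower in zmp-2 shh1-1. They held 54, 44 and 59 reads (55.2, 40.1 and 38.5 RPMR), within the 31.2 to 70.15 RPMR of zmp-2. The log2 difference was -0.10 (exact permutation p = 0.8), 0 of 3 windows were called by edgeR or DESeq2, and none had an unadjusted p under 0.05. At chr3:15805501-15805600 the log2 fold change was -0.07 (SE 0.50), above the median of -1.0 over all windows, and under the total-read scaling this window was called higher (log2 fold change 1.06, FDR 0.027). The added intergenic region differed from it, with 11, 7 and 2 reads in zmp-2 shh1-1 (11.2, 6.38 and 1.31 RPMR) against 73, 85 and 55 in zmp-2 (159, 181 and 143 RPMR). There, 2 of 3 tested windows were lower, at -4.64 (SE 0.63) and -6.41 (SE 0.73). These 2 windows reached the read minimum of the test mostly through zmp-2, so the calls add little to the reads.

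Ratios between loci within a library need no scaling and were compared after these values had been seen. In zmp-2 shh1-1 against zmp-2 the log2 ratio of FWA to AT3G44030 reads was -1.59 ± 0.40 against 2.00 ± 0.35 (SD, n = 3), a difference of -3.60. The ratio of FWA to SDC reads was -3.69 ± 0.18 against -1.96 ± 0.10, a difference of -1.74, and that of SDC to AT3G44030 reads differed by -1.86. None of these ranges overlapped (each exact permutation p = 0.1, and 0.227 after adjustment over 25 such comparisons). In these libraries the decrease was larger at FWA than at SDC and larger at SDC than at the AT3G44030 windows, an order that does not depend on the scaling. It does depend on the windows, since over those with at least 90% unique 24-mers the log2 difference was -0.12 at FWA and -0.93 at SDC.

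In zmp-2 without shh1-1, the AT3G44030 windows did not pass the test against WT. They held 60, 36 and 55 reads in batch A (125, 136 and 85.6 RPMR) and 20, 33 and 12 in batch B (43.5, 70.15 and 31.2 RPMR), overlapping WT in both. The log2 difference was 0.35 in batch A (exact permutation p = 0.3) and 0.70 in batch B (exact permutation p = 0.2), and 0.64 and 1.05 under the total-read scaling, without overlap. By edgeR 0 of 3 and 0 of 2 windows were called, 1 in each batch had an unadjusted p under 0.05, and DESeq2 called none. The most covered window gave 0.85 (SE 0.33, FDR 0.14) and 1.21 (SE 0.50, FDR 0.17), and the total-read scaling called it higher in both batches (FDR 0.024 and 0.022), as did leaving out zmp-2 replicate 3 in batch B (FDR 0.05). The 24-nt share of these windows was 74.9% ± 3.36 in zmp-2 against 56.1% ± 2.75 in WT of batch A. In batch B it was 65.8% ± 4.86 against 54.7% ± 1.71, and neither batch had an overlap (each exact permutation p = 0.1). This share does not depend on the scaling. It rested on 34 to 81 reads of 21 to 24 nt per library in batch A and 18 to 47 in batch B.

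Other loci tied to RdDM behaved in various ways in zmp-2. Within 2 kb of 9 such genes, 40 of 127 tested windows were lower and 3 higher in batch A, and 35 of 101 were lower and 1 higher in batch B. Over the genome 6.05% were lower and 2.48% higher in batch A, and 6.12% and 1.82% in batch B. The 9 genes were listed with earlier results of these data known, so the gap to the genome is not evidence of enrichment. Most of the lower windows lay at AGL36 and ALN, and neighbouring windows are not replicates. At AGL36, an imprinted MADS-box gene, 21 of 38 windows were lower in batch A and 18 of 35 in batch B, and its level was 1539 ± 122 RPMR in zmp-2 against 8469 ± 465 in WT of batch A (SD, n = 3). At ALN, the allantoinase gene, 10 of 24 and 10 of 19 windows were lower. MEA, an imprinted Polycomb gene flanked by repeats, had 0 of 9 and 0 of 7 windows called, and QQS, a starch gene next to transposons, had 0 of 16 and 0 of 9. In zmp-2 shh1-1, MEA had 6 of 6 windows lower, while 28.9% of all windows were lower. Its level was 6.27 ± 2.50 RPMR against 300 ± 82.5 in zmp-2 (SD, n = 3), and its windows reached the 10-read minimum mostly through zmp-2. Over the 9 genes 21 of 94 windows were lower and at AGL36 3 of 33, both shares below that of the genome. By values alone FWA lay with MEA in both comparisons, without a test of likeness. In zmp-2 ZMP-YFP against WT, 0 of 115 windows of the list were called by edgeR.

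Genes whose 24-nt profile was most like each locus were taken from 4810 protein-coding genes over the 18 libraries without nrpd1-3. For FWA these were AT4G26370 (r = 0.993) and HSD1 (r = 0.992), a steroleosin-type dehydrogenase gene. The profile of HSD1 held 545 reads in zmp-2 of batch B and 10 in zmp-2 shh1-1. For SDC they were MYB100 (r = 0.978), a MYB transcription factor gene, and AT4G11320 (r = 0.975). For the AT3G44030 windows they were AT1G43730 (r = 0.920) and AT1G35030 (r = 0.919), with 104 and 199 reads in zmp-2 of batch B and 220 and 376 in zmp-2 shh1-1. High values were common, since the 95th percentile over the genes compared was 0.975 for FWA, 0.868 for SDC and 0.723 for the AT3G44030 windows, and the points share libraries and depth.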

How the data were processed

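Small RNAs of Col-0 inflorescences were sequenced in 23 libraries. Per the study's methods the authors trimmed reads with custom scripts, kept reads of 18 nt or longer, removed reads matching rRNA, tRNA and snoRNA with Bowtie 1.1.0 while counting 45S hits, and aligned the rest to TAIR10 with ShortStack without mismatches, placing multi-mapping reads by their unique neighbours. The deposited files give, per 100-bp window and read size, whole-number counts of reads by their 5′ end, RPM (reads scaled to library size) and RPMR, a score per 1000000 reads of 45S rRNA. The files hold no strand. A window missing from a library's file was counted as 0 there. Placement by neighbours can move reads between near-identical copies.

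Counts of 21, 22, 23 and 24 nt were tested separately, per window, with edgeR 4.0.16 (quasi-likelihood test, R 4.3.3), with 45S reads as library size, at least 10 counts over the libraries of a fit, and calls at FDR 0.05 (Benjamini-Hochberg over all windows of the genome) and 2-fold. The SE given is the log2 fold change divided by the root of F, an approximation. Locus values were compared as the mean log2 RPMR of the summed reads plus 1 count, with two-sided exact permutation tests over libraries, which cannot go below p = 0.1 for 3 against 3 or 0.2 for 2 against 3. Over the 21 locus tests of 24-nt levels the smallest adjusted p was 0.191. Floors are 3 counts over a group. Windows named are, per locus, the one with the highest mean level and, per comparison, the one with the smallest FDR, with all called where 5 or fewer. The windows beside them were chosen after their values were seen. Likeness is Pearson's r of log2 24-nt reads (1 added) per 1000000 such reads, over gene bodies plus 1 kb, at 20 or more reads per library on average. Members and lists were chosen with earlier results of these data known. The test was checked on simulated data. DESeq2 1.42.0, other scalings, filters, 500-bp tiles, a replicate block and leaving out each library were alternatives.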

Additional observations from a re-analysis of the deposited data

How the results depend on the processing

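Counts of called member windows moved with the scaling and the filter. For windows higher in zmp-2 than in WT of batch A, 1 in the main test, the count was 3 under the total-read scaling and 2 with TMM, without the count filter or with the replicate block, and 1 to 2 when a library was left out. In batch B, 0 became 3 under the total-read scaling and 1 with TMM or 500-bp tiles, and 0 to 1 when a library was left out. Of 17 windows lower in nrpd1-3, 1 was called with TMM and 0 with DESeq2, and 7 tiles were called. For zmp-2 nrpd1-3 the count of lower windows, 16 in the main test, was 6 with TMM and 26 without the filter, where more windows were tested, and 7 tiles were called. Of 4 lower in zmp-2 ZMP-YFP than in zmp-2, 2 were called with TMM, without the filter and as tiles, 1 with DESeq2, and 0 to 3 when a library was left out (0 without zmp-2 ZMP-YFP replicate 2, 1 without zmp-2 replicate 1). In zmp-2 shh1-1, 9 lower windows became 5 tiles, and with DESeq2 3 were called at FWA and 3 at SDC. Under the total-read scaling and with TMM, 4 were called at FWA and 4 at SDC, and 0 higher windows became 1. In the genome, windows lower and higher in zmp-2 numbered 9021 and 3692 in batch A and 6059 and 1800 in batch B, against 7220 and 6781, and 5070 and 3461, under the total-read scaling. For zmp-2 shh1-1 they numbered 29286 and 301, against 18984 and 5592.

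Locus differences (log2) also moved. Under the total-read scaling, FWA gave 0.20 (zmp-2 against WT, batch A, a reversal), -4.28 (nrpd1-3), -0.20 (zmp-2 ZMP-YFP against WT), -4.23 (zmp-2 nrpd1-3) and -2.61 (zmp-2 shh1-1). SDC gave 0.34, -4.17, 0.01 (a reversal), -5.19 and -0.87 in the same order, and the AT3G44030 windows gave -2.42 (nrpd1-3), -0.16 (zmp-2 ZMP-YFP against WT), -2.23 (zmp-2 nrpd1-3) and 0.99 (zmp-2 shh1-1, a reversal). Over windows with at least 90% unique 24-mers, FWA gave 0.39 (zmp-2, batch A, a reversal), -0.43 (zmp-2, batch B), -4.96 (nrpd1-3), -0.99 (zmp-2 ZMP-YFP against zmp-2), -5.59 (zmp-2 nrpd1-3) and, for zmp-2 shh1-1, -0.12. SDC gave 0.29 (zmp-2, batch A), -7.27 (nrpd1-3), -0.56 (zmp-2 ZMP-YFP against WT), -0.85 (the same against zmp-2), -9.20 (zmp-2 nrpd1-3) and, for zmp-2 shh1-1, -0.93. No AT3G44030 window was that unique, so this could not be run there. With pseudocounts of 0.1 and 5, nrpd1-3 gave -8.50 and -6.11 at FWA and -7.83 and -4.07 at AT3G44030, and -7.10 with 5 at SDC. For zmp-2 nrpd1-3 they gave -13.63 and -8.07 at FWA, -12.79 and -9.66 at SDC, and -11.57 and -6.26 at AT3G44030. The 24-nt share against 21-nt reads alone differed by -4.05 points at FWA (zmp-2 ZMP-YFP against WT), 0.688 at FWA and 0.745 at SDC (zmp-2 shh1-1), and 10.1 at AT3G44030 (zmp-2, batch A). The cause of these shifts was not tested. Deviations from the group means correlated between -0.042 and 0.065 for same-numbered replicates. For other-numbered ones the mean correlations lay between -0.014 and 0.010. Values this small, from windows with few reads, do not settle whether same-numbered replicates shared a preparation. With the replicate block, the counts of lower windows were 15 (nrpd1-3), 16 (zmp-2 nrpd1-3), 10 (zmp-2 shh1-1) and 4 (zmp-2 ZMP-YFP against zmp-2, namely 3 at SDC and 1 at AT3G44030, in place of 4 at SDC). At 14 to 245 reads of 24 nt per library outside nrpd1-3, FWA windows with few reads allow only large changes to be seen.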
